A study of Mus musculus with 106 samples.

Results

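Unstimulated bone marrow-derived macrophages (BMDM) from diabetic and control mice were compared by the H3K27ac peaks called in each chromatin immunoprecipitation sequencing (ChIP-seq) library. The comparison used the 11 libraries whose labels give the H3K27ac antibody, BMDM and no stimulation, from a series of 106 samples, of which 70 have a peak list. The diabetic group held 5 libraries, numbered 1, 2, 4, 5 and 6, and the control group held 6, numbered 1 to 6. All mice were C57BL/6J, aged 12 to 14 weeks when they were assigned to a group. Diabetic mice received streptozotocin, which destroys pancreatic beta cells, at 42 to 45 mg/kg/day for 5 days, and were killed 6 weeks later with blood glucose above 13.9 mmol/L. Control mice did not have diabetes and no other treatment of theirs is given. Marrow of both groups was differentiated for 7 days in 5 mmol/L glucose with L929-conditioned medium, so the cells of both groups met the same glucose in culture, and the unstimulated wells then received medium alone for 16 hours. The question was whether diabetes in the donor left a mark on H3K27ac peaks after culture in physiological glucose. It was asked of which peaks were called and how strong they were relative to each other. The study's methods count individual animals as n, while the labels do not tie a library to a mouse, so p-values are given for the spread between libraries.

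H3K27ac is acetylation of lysine on the tail of histone H3. It marks active promoters and, away from start sites, active enhancers, where it is written by the acetyltransferases p300 and CBP and removed by histone deacetylases. In macrophages, PU.1 (encoded by Spi1), C/EBP, AP-1 and RUNX factors occupy many of the enhancers that carry it, and lipopolysaccharide (LPS) and interferon-γ (IFN-γ) add acetylation through NF-κB, IRF and STAT factors.

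Every list was cut to its 20000 peaks with the largest −log10 p, since the lists differed in length, and each peak was given its rank, where rank 1 is the strongest. A promoter was the stretch within 1000 bp of any start site of a protein-coding gene, and its value was the best rank of a peak in it. A distal region was a merged stretch of such peaks, held by at least 2 libraries and further than 1000 bp from every start site. Ranks were turned into a rank score, log2(20000/rank), with 0 for no peak among the 20000, so that a difference of 1 is a 2-fold difference in rank. All differences below are diabetic minus control. A score of 0 means that no peak reached the cut and not that acetylation was absent.

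The distal regions with the smallest p in each direction, although none passed the test after adjustment, are shown first by 300 bases of their strongest summit on the plus strand of GRCm38, together with the one region held by all 5 diabetic and none of the control libraries. That last region was added to the sequences after its values were seen. Capitals mark a match to the PU.1 core GAGGAA, here on the minus strand. No other window shown held a match to any of the 6 motifs searched.
Gm38399 intron, higher score in diabetic libraries, chr1:135665550-135665849 (+): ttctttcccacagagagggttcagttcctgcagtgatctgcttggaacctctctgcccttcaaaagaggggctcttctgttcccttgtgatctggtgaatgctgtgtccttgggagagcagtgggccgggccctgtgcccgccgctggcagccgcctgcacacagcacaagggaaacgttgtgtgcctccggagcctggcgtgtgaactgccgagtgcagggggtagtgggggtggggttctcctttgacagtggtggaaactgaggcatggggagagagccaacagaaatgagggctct
Mcub intron, higher score in diabetic libraries, chr3:129935851-129936150 (+): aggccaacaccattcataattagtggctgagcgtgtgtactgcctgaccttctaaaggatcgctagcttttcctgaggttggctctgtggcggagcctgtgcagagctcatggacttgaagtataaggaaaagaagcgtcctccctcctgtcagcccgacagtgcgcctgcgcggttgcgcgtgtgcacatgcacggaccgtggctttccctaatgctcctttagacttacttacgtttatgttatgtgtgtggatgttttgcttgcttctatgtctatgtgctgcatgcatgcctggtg
Tgfbi exon, held by diabetic libraries, chr13:56627826-56628125 (+): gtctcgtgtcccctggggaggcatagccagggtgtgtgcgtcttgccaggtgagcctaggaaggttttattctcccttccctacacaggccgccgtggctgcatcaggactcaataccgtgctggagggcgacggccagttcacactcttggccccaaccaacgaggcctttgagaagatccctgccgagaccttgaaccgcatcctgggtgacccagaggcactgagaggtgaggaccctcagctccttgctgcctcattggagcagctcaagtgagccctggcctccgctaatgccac
Intergenic on chromosome 7, lower score in diabetic libraries, chr7:73618083-73618382 (+): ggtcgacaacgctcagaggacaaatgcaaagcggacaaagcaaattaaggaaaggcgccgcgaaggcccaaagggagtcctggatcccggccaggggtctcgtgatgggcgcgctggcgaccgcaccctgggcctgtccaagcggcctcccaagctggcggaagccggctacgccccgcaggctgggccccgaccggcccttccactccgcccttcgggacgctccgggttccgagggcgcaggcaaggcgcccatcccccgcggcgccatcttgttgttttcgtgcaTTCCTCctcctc
Eepd1 intron, lower score in diabetic libraries, chr9:25509965-25510264 (+): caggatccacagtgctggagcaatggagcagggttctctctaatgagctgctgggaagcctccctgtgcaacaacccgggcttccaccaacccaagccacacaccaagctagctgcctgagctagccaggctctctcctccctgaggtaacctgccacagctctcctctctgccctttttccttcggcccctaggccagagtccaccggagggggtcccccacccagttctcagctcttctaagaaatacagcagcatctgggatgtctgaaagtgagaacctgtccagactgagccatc

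The 11 lists held between 54313 and 175991 peaks. The diabetic lists ran from 54313 to 175991 with a mean of 103897 ± 46657 (SD, n = 5), and the control lists from 54408 to 169361 with a mean of 118042 ± 42662 (SD, n = 6), a difference smaller than the spread (exact two-sided permutation p = 0.604). The −log10 p of the peak at rank 20000 ran from 8.76 to 22.6. Read totals are not in the lists, so the depth behind a rank is unknown and no counting interval could be given.

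Several libraries stood apart before any comparison of the groups. Control libraries 1 and 3 shared 54% of the distal regions that either held, and 507 distal regions were held by these 2 libraries and by no other; the other 54 pairs of libraries had a median of 64 such regions and at most 197. Their distal peaks were the widest, with medians of 1019 and 986 bp, and had the lowest GC content, with medians of 51.0% and 52.3%. Control library 4 was closest to diabetic library 6, with a Spearman correlation of promoter scores of 0.918 across genes, the highest of any pair. Control libraries 5 and 6 stood with the LPS+IFN-γ libraries at promoters that answered that stimulus, as given below. Differences of named genes, regions and lists are therefore also given without control libraries 1 and 3, or 5 and 6, where that moved them by over 1.5 times.

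The macrophage label was checked by marker promoters. Of 12 macrophage markers, 5 to 8 had a peak among the 20000 in each library, and 5 of them had one in all 11. Csf1r, the receptor for the growth factor that macrophages need, ranked 12876, 12479, 16792, 13656 and 18981 in diabetic libraries 1, 2, 4, 5 and 6 and 2391, 11500, 9533, 18881 and 17480 in control libraries 1 to 5, with no peak at this cut in control library 6. Cd68, a lysosomal protein of macrophages, was held by all 11 libraries, against 1 of 6 diabetic and 2 of 6 control libraries of hematopoietic stem cell-enriched marrow (HSC). Adgre1, Itgam, Lyz2 and Fcgr1, also macrophage markers, had no promoter peak at this cut in any of the 11. The summed score of the 12 markers ran from 8.38 to 17.6 in diabetic and from 5.79 to 28.5 in control libraries, with the highest value in control library 1.

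Some markers of other cell types were also held, and in a few libraries their scores per member came near or above those of the macrophage markers. Kit, the stem cell factor receptor, reached the cut in 1 diabetic library, at rank 15987, and in no control library, but in 6 of 6 diabetic and 5 of 6 control HSC libraries. The 9 stem and progenitor markers had summed scores of 1.34 to 3.59 in diabetic and 0 to 5.56 in control libraries, and the highest value, with 7 of 9 markers held, was in control library 4, where the 12 macrophage markers summed to 7.99. The 10 neutrophil markers summed to 0.389 to 2.10 in diabetic and 0.521 to 2.60 in control libraries, with Elane, Mpo and S100a8 at 0 in all 11 but Prtn3, a protease of neutrophil granules, held by 5 of 5 and 4 of 6 and Cebpe, a factor of granulocyte maturation, by 4 of 5 and 6 of 6. The 7 erythroid markers summed to at most 3.63 and 4.20, the latter in control library 5, where the macrophage markers summed to 5.79. Gata1 was at 0, while Klf1, an erythroid transcription factor, was held by all 11 libraries at ranks 4109 to 7943 in diabetic and 4538 to 10408 in control libraries, and Tfrc, the transferrin receptor, by 5 of 5 and 5 of 6. The 9 lymphoid markers reached at most 1.35 and 1.55, the 6 dendritic cell markers 0.544 and 0.600, and the 7 stromal markers 0.218 and 0.00948, with Cd3e and Xcr1 at 0 in all 11. The groups overlapped in all 7 marker lists, and the part of marker levels in the results below was not tested.

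**Figure D1:**
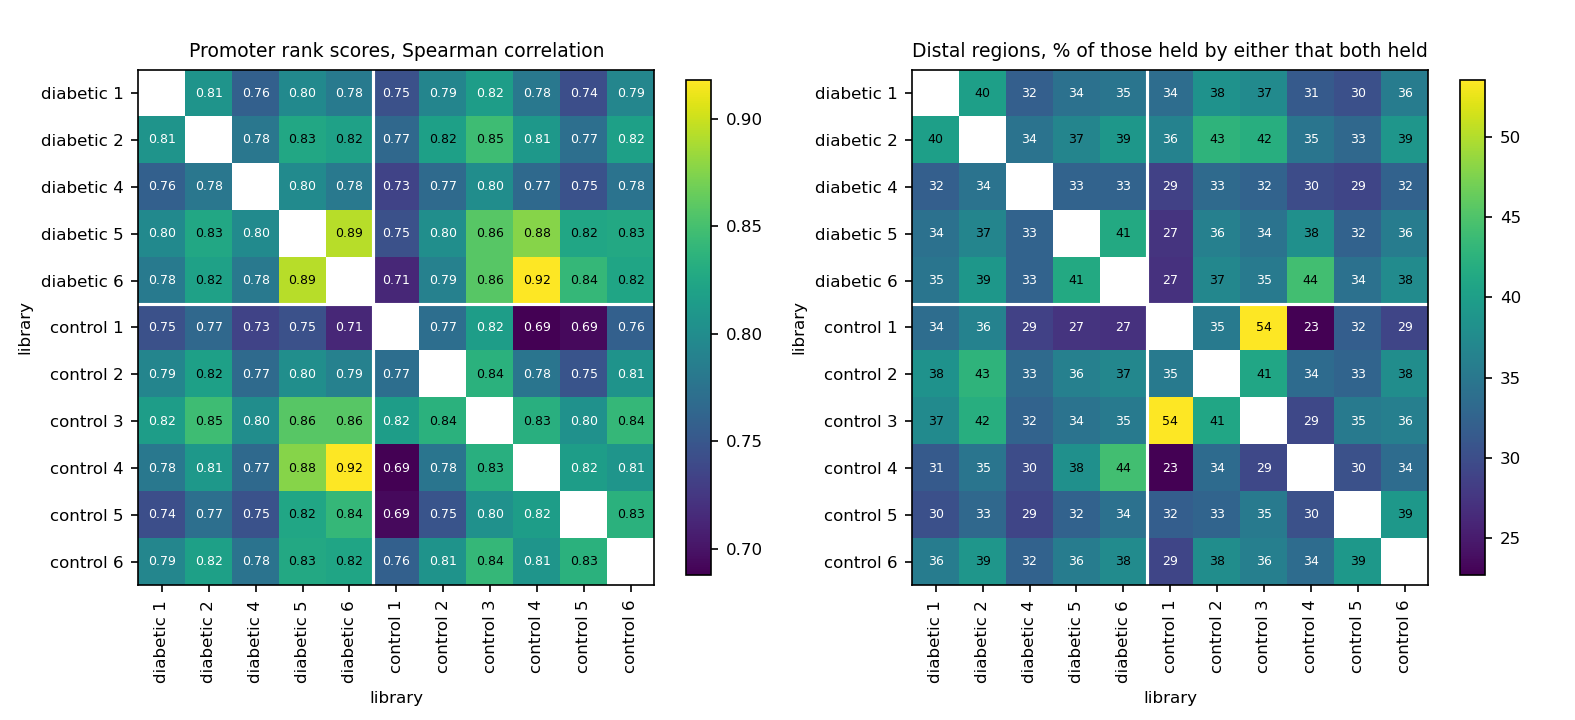
Likeness of the 11 libraries to each other, with diabetic libraries first and a white line between the groups. The left panel gives the Spearman correlation of promoter scores across genes and the right panel the percent of distal regions held by either library that both held; the brightest cells are diabetic 6 with control 4 (0.918) and control 1 with control 3 (54%), and neither panel splits along the white line.

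Libraries of one group were no closer to each other than the test could tell from libraries of the other. The library nearest to each library by promoter scores came from its own group in 4 of 11 cases, and by shared distal regions in 7 of 11. The mean distance between groups in distal regions held, as 1 minus the shared fraction, was 0.653, against 0.648 within groups, a difference of 0.00492 (exact one-sided permutation p = 0.303). For promoter scores, 1 minus the Spearman correlation averaged 0.201 between groups and 0.205 within them (exact one-sided permutation p = 0.665). The smallest p that 5 against 6 libraries allow is 0.00216. The study reports that quantified H3K27ac, shown at variable regions, clearly told diabetic from control samples in HSC and BMDM. It also reports that promoter differences near regions of increased accessibility, marked in HSC, diminished in BMDM. Those are amounts of signal at selected regions, while ranks and held regions across the lists were compared here.

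No gene's promoter score passed the test for a difference between the groups. Ranks in lists of equal length cannot show a rise or fall of H3K27ac shared by all peaks, so total H3K27ac was not tested. By Western blot, the study reports more H3K27ac in HSC of diabetic mice than of control mice. It reports that the mark was still raised in BMDM grown from them in physiological glucose. Of 21938 protein-coding genes, 13623 had a promoter peak in at least 1 library, 8740 had one in all 11, and 12091 had one in at least 3 and were tested. None was called at an adjusted p under 0.05 (0%), and the lowest adjusted p was 0.998 (limma, Benjamini-Hochberg). At an unadjusted p under 0.05, 247 promoters (2.04%) had the higher score in diabetic libraries and 186 (1.54%) the lower, and in 21 (0.174%) and 19 (0.157%) the groups did not overlap, with all diabetic libraries above or below all control libraries. The median standard error of a difference was 0.384 in score. Each standard error (SE) of a difference is limma's moderated one, which draws on the variance of all tested features. It can be smaller than the spread of a feature's own libraries would give.

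The promoters named next had the smallest p in each direction, so their size and their small unadjusted p follow from that choice, and each had an adjusted p of 0.998. Among those with higher scores in diabetic libraries, the largest differences were at Tardbp, Dnajb2 and Wdr45b. Tardbp (chr4:148612382-148627019, minus strand) encodes the RNA-binding protein TDP-43. Its promoter ranked 171, 56, 51, 12 and 25 in diabetic libraries and 304, 159, 512, 1652, 738 and 1750 in control libraries, so that control library 2 alone stood above a diabetic one. Mean scores were 8.86 ± 1.43 and 5.03 ± 1.36 (SD, n = 5 and 6), a difference of 3.83 ± 1.09 (SE), or 14.3-fold in rank.

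Dnajb2 (chr1:75236406-75245692, plus strand), a co-chaperone of HSP70, ranked 2144, 46, 84, 353 and 453 in diabetic libraries and 1854, 3621, 1798, 1350, 7600 and 1914 in control libraries. Diabetic library 1 lay among the controls and the other diabetic libraries above them, and the difference was 3.23 ± 0.89 (SE). Wdr45b (chr11:121327224-121354445, minus strand), a WIPI-family protein of autophagosome formation, ranked 164, 148, 563, 113 and 289 in diabetic libraries and 999, 1940, 1606, 1868, 782 and 1670 in control libraries. The groups did not overlap at Wdr45b, and the difference was 2.71 ± 0.75 (SE), with 2.86 without control libraries 5 and 6 and 2.79 without 1 and 3.

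The other promoters on this side had lower ranks, with 1 or more control libraries past the cut at each. March10, of a family of membrane-bound ubiquitin ligases, ranked 5530, 8999, 10779, 9889 and 6565 in diabetic libraries, and 17072, 10489, 17438 and 15104 in control libraries 3 to 6, with none in 1 and 2; the difference was 1.01 ± 0.24 (SE). Prrg1, a membrane protein with a vitamin K-dependent domain, ranked between 10269 and 15349 in the 5 diabetic libraries and reached the cut in 1 control library, at 17702, a difference of 0.62 ± 0.16 (SE) without overlap. Phb, a scaffold of the inner mitochondrial membrane, differed by 0.93, 4930404N11Rik by 0.82 and Nkain1 by 0.67. For March10 and Nkain1, H3K4me3 peaks, which mark active promoters, were held by 5 of 5 diabetic and 6 of 6 control libraries of the same kind of cells.

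**Figure D2:**
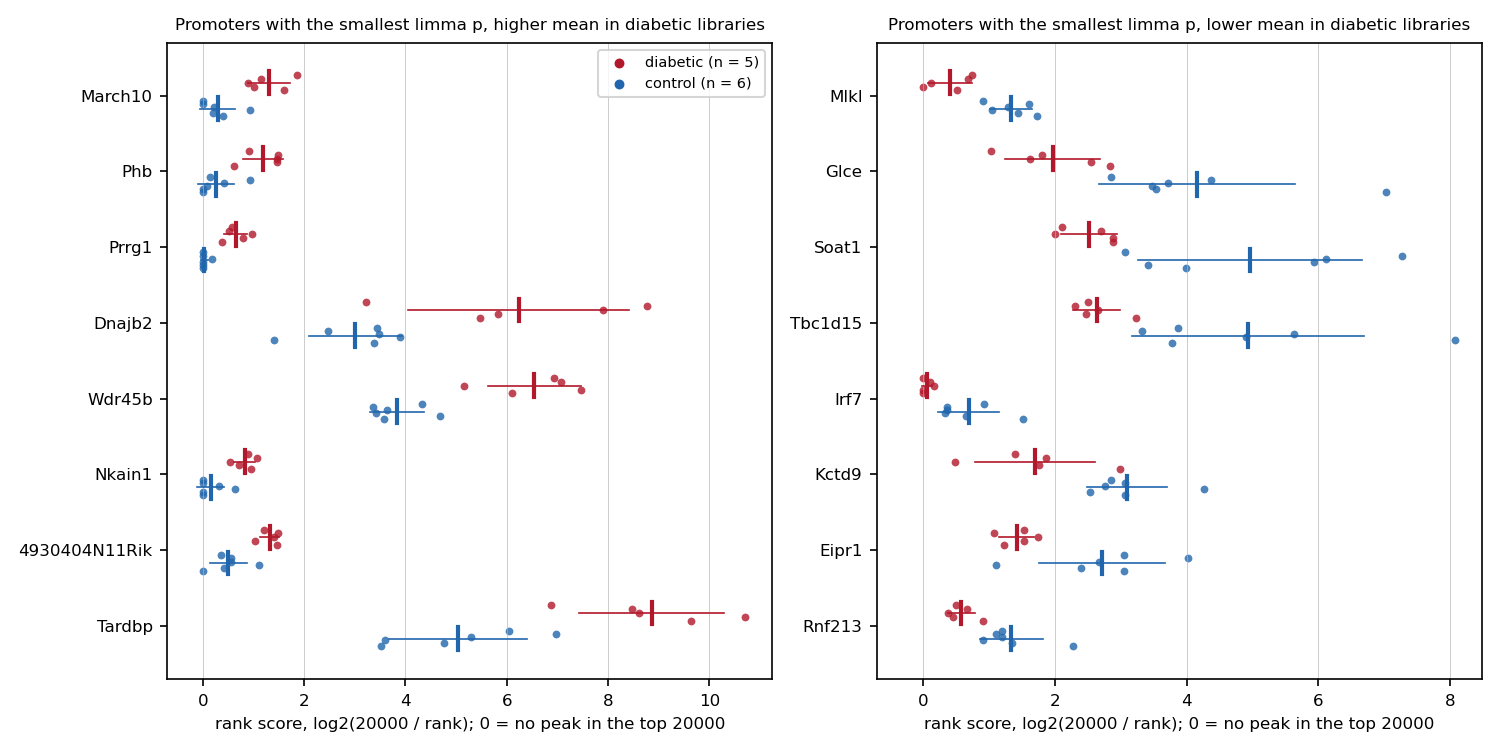
Rank score, log2(20000/rank), of the promoters with the smallest limma p, higher (left) or lower (right) in diabetic libraries. Each point is a library, and the tick and line are the mean and SD (n = 5 diabetic, n = 6 control); points at 0 have no peak among the 20000, and Wdr45b, Prrg1, Mlkl, Glce, Soat1, Tbc1d15, Irf7 and Rnf213 show groups that do not overlap.

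On the lower side, the promoters with the smallest p included Soat1, Mlkl and Irf7. Soat1 (chr1:156424525-156474331, minus strand), which esterifies cholesterol for storage in macrophage foam cells, ranked 4664, 3079, 4974, 2725 and 2729 in diabetic libraries and 2388, 130, 288, 328, 1872 and 1264 in control libraries. All diabetic libraries lay below all control libraries, with mean scores of 2.51 ± 0.42 and 4.96 ± 1.70 (SD) and a difference of -2.45 ± 0.74 (SE). Mlkl (chr8:111311797-111338177, minus strand), the protein that breaches the plasma membrane in necroptosis, ranked 11937, 12502, 18515 and 13974 in diabetic libraries 1, 2, 4 and 6, had no peak at this cut in 5, and ranked 6050 to 10614 in all control libraries. The Mlkl groups did not overlap and differed by -0.92 ± 0.24 (SE), and by -0.80 without control libraries 5 and 6.

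Irf7 (chr7:141262706-141266481, minus strand), a transcription factor that drives type I interferon genes, reached the cut in 2 of 5 diabetic libraries, at ranks 18675 and 17866, and in 6 of 6 control libraries, at 10550, 15570, 15594, 15844, 12711 and 7001. Its difference was -0.64 ± 0.21 (SE) and -0.44 without control libraries 5 and 6, of which library 6 had its best rank. Rnf213, a large ubiquitin ligase induced by interferon, ranked 10684 to 15461 in diabetic and 4118 to 10620 in control libraries. Its difference was -0.76 ± 0.26 (SE) and -0.52 without control libraries 5 and 6, but 0.89 when the promoter was widened to 2500 bp.

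Glce, an enzyme of heparan sulfate synthesis, had mean scores of 1.96 ± 0.72 and 4.16 ± 1.49 (SD) and Tbc1d15, a GTPase-activating protein for RAB7, differed by -2.30 ± 0.75 (SE), both without overlap. Kctd9 and Cdca2 shared a peak, since their start sites lie close together, and that peak differed by -1.39 ± 0.47 (SE). Eipr1, which acts in endosome recycling, differed by -1.29 ± 0.43 (SE) and by 0.12 with promoters of 2500 bp.

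Of the genes taken from the study, none that could be tested passed, and Il6, Il1b, Chil3 and Retnla had too few holders to be tested. Il6, Chil3 and Retnla had no promoter peak in any library, also in the full lists, so the lists carry no rank for the cytokine IL-6 or for these markers of alternative activation. From tracks of representative HSC and BMDM samples, the study reports H3K27ac peaks at Il6 and at Hk1. Tracks and lists were not compared here. Il1b, another cytokine, had none among the 20000 and a peak in 1 of 5 diabetic and 2 of 6 control full lists. Tnf reached the cut in diabetic library 6, at rank 19848, and in control libraries 1 and 3, at 3732 and 10358, a difference of -0.56 ± 0.33 (SE). Without control libraries 5 and 6 the Tnf difference was -0.84, and without 1 and 3, its only control holders, it was 0.0022.

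Nos2, the inducible nitric oxide synthase, ranked 17189, 10639, 9995 and 11510 in diabetic libraries 1, 4, 5 and 6 and 19591, 10608, 4938 and 8154 in control libraries 2, 4, 5 and 6. Its 2 best ranks were those of control libraries 5 and 6, and its difference moved from -0.12 ± 0.33 (SE) to 0.35 without them and to -0.48 without 1 and 3. Hk1, the hexokinase that opens glycolysis, ranked 3504, 6742, 2118, 7406 and 4666 in diabetic libraries and 4442, 5141, 4167, 5106, 5672 and 4540 in control libraries, a difference of 0.12 ± 0.38 (SE), and of 0.20 without control libraries 1 and 3. The diabetic values of Hk1 reached beyond the control values on both sides.

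Runx1, a transcription factor of blood cell development, ranked 1253, 2198, 4080, 1879 and 2372 in diabetic libraries and 3301, 2511, 2657, 2814, 3062 and 2431 in control libraries. Its difference was 0.35 ± 0.45 (SE), in overlapping groups, 0.14 without diabetic library 1, and -0.55 when peaks were ranked by fold enrichment. Spi1, encoding PU.1, varied from rank 37 in control library 1 to 7847 in control library 4, with a difference of -0.74 ± 1.18 (SE), of 0.28 without control libraries 1 and 3 and of -1.36 without 5 and 6. Ctcf, which organizes chromatin loops, differed by -0.68 ± 0.61 (SE), by -0.34 without control libraries 5 and 6 and by -0.38 without control library 3. The adjusted p was 0.998 for each of these genes that could be tested.

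The 9 gene lists, of 246 members in all, had no member called by adjusted p, against 0% of all promoters tested. The median difference over all tested promoters was 0.0219. For the LPS and interferon response, 39 of 40 members were annotated, 18 were tested, 5 had higher and 13 lower scores, and 14 had no peak at the cut in any library, among them Il6, Il1b, Cxcl9 and Cxcl10. The median difference of the 18 was -0.23, with -0.07 without control libraries 1 and 3 and -0.36 without control library 4. Cd40, a costimulatory receptor, was held by 0 of 5 diabetic and 5 of 6 control libraries, at ranks of 8566 to 18443, and had a peak in 5 of 5 and 5 of 6 full lists. The Cd40 difference was -0.40 ± 0.20 (SE), and -0.16 without control libraries 1 and 3. Ptgs2, the inducible cyclooxygenase, ranked 6053 to 11495 in diabetic and 2549 to 9734 in control libraries, a difference of -0.67 ± 0.36 (SE), and Irf7 is given above.

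Of the 20 alternative activation genes, 19 were annotated, 9 were tested, 3 had higher and 6 lower scores, and their median difference was -0.38, with -0.23 without control libraries 1 and 3 and -0.18 without control library 3. Tgm2, the transglutaminase that marks alternatively activated macrophages, ranked 5356, 4609, 5689, 7707 and 5473 in diabetic libraries and 3139, 4326, 1432, 4178, 2996 and 2365 in control libraries. The groups did not overlap at Tgm2, where the difference was -0.98 ± 0.39 (SE). Pparg, a lipid-sensing nuclear receptor, differed by -0.83 ± 0.48 (SE), and Myc by 1.16 ± 0.66 (SE), which was 0.24 without diabetic library 4, where it ranked 205.

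Metabolic genes were mixed in direction. For glycolysis and the pentose phosphate pathway, 27 of 29 were tested, 14 with higher and 13 with lower scores, and the median difference was 0.02, with -0.10 without control libraries 1 and 3 and 0.08 without 5 and 6. Hif1a, the oxygen-sensing factor that induces glycolytic genes, differed by -1.13 ± 0.64 (SE), Aldoa, the aldolase, by -1.07 ± 0.61 (SE) and Pfkfb4, a regulator of glycolytic flux, by -0.69 ± 0.42 (SE); without control libraries 1 and 3, Aldoa was at -0.35 and Pfkfb4 at -0.31. For lipid uptake and efflux, 22 of 26 were tested, 8 higher and 14 lower, with a median of -0.22, of -0.07 without control libraries 1 and 3 and of -0.09 without control library 2. Apart from Soat1, Apoc1, an apolipoprotein, differed by -0.39 ± 0.19 (SE) and Lpl, lipoprotein lipase, by 0.61 ± 0.34 (SE), with 0.38 without diabetic library 4. For cholesterol synthesis all 22 were tested, 13 higher and 9 lower, with a median of 0.04, and of -0.03 without control libraries 1 and 3 and 0.01 without 5 and 6. Ebp differed by 0.45 and Mvk by -0.44, and without diabetic library 1 by 0.29 and -0.25.

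Of 32 genes of RUNX and macrophage transcription factors, 31 were tested and 30 were held by all 11 libraries. Their median difference was -0.09, with 14 higher and 17 lower, and it was 0.15 without control libraries 1 and 3 and -0.41 without 5 and 6. Cbfb, the partner that lets RUNX proteins bind DNA stably, ranked 1011, 1301, 2485, 1338 and 2988 in diabetic and 2567, 5313, 3466, 2783, 5455 and 5327 in control libraries. Its difference was 1.24 ± 0.47 (SE), with diabetic library 6 alone inside the control range. Tfeb, the regulator of lysosome genes, ranked 6775, 2351, 5817, 5764 and 5942 against 1659, 1529, 2536, 3965, 3655 and 2361, a difference of -1.03 ± 0.44 (SE), with diabetic library 2 inside the control range. Fos, a component of AP-1, differed by -1.10 ± 0.60 (SE), and by -0.67 without control libraries 1 and 3.

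Of the 23 chemokine receptor and adhesion genes, 12 were tested, 7 higher and 5 lower, with a median of 0.14, and of -0.18 without control libraries 5 and 6. Cd44, the hyaluronan receptor, differed by -1.51 ± 0.88 (SE) but by -0.33 without control libraries 1 and 3, since it ranked 86 in control library 1 and 6613 to 16100 in the other control libraries. Itga4, an integrin of monocyte adhesion, differed by 0.59 ± 0.40 (SE), with 0.31 without control libraries 5 and 6 and 0.38 without diabetic library 1, and Itgax by 0.35 ± 0.21 (SE).

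For the 31 enzymes that add or remove histone acetyl and methyl groups, 13 had higher and 18 lower scores, with a median of -0.06, and of -0.10 without control libraries 1 and 3 and -0.02 without 5 and 6. Kat5, an acetyltransferase, differed by -1.73 ± 0.84 (SE) and Setd7, a lysine methyltransferase, by 0.95 ± 0.48 (SE), each between overlapping groups. Hdac1, a histone deacetylase, ranked 7091 to 8891 in diabetic and 2120 to 7067 in control libraries without overlap, a difference of -0.53 ± 0.34 (SE), which was -0.29 without control libraries 1 and 3 and 0.38 with promoters of 2500 bp. For the 23 cell cycle genes, 13 were higher and 10 lower, with a median of 0.05, and of -0.16 without control libraries 5 and 6 and 0.10 without 1 and 3. Cdkn1a, an inhibitor of cyclin-dependent kinases, differed by 2.08 ± 1.02 (SE), but by 0.93 without control libraries 5 and 6, where it ranked 5005 and 4635 against 206 to 1785 in the other control libraries. Cdk1 and Cdk2 each differed by 0.52, with SE of 0.26 and 0.44, and Cdk2 by 0.16 without diabetic library 1.

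**Figure D3:**
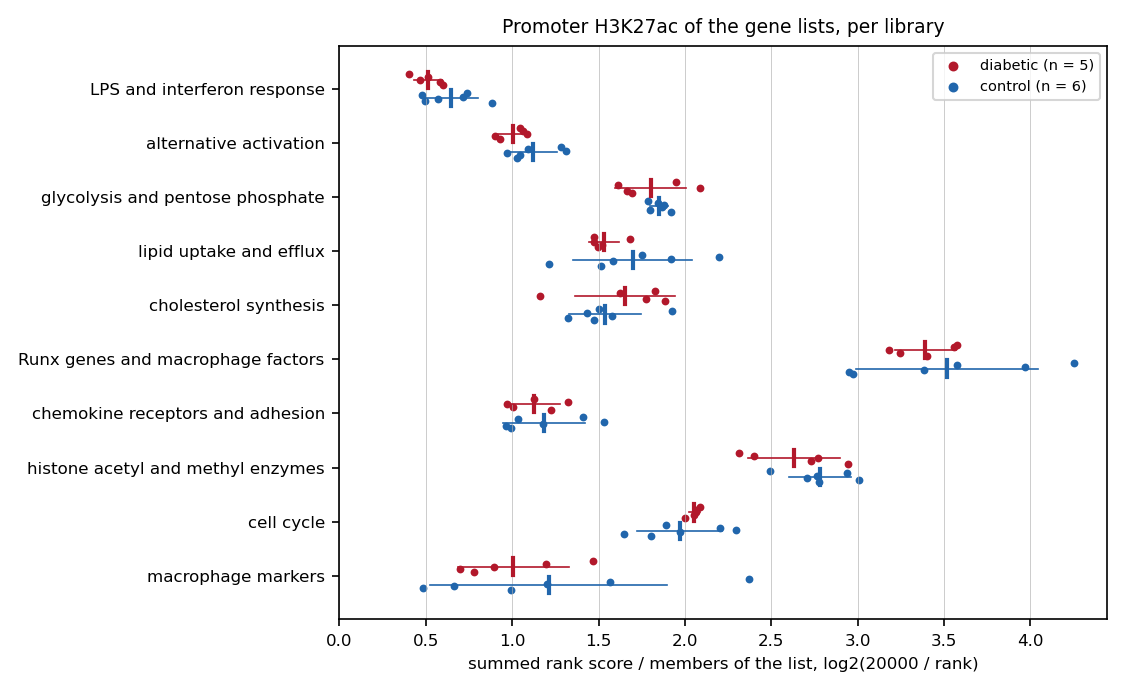
Summed promoter rank score of each gene list and of the macrophage markers, divided by the number of members, in each library. Points are libraries, and the tick and line are the mean and SD (n = 5 diabetic, n = 6 control). The groups overlap in all 10 rows. By SD, control values spread more widely than diabetic ones in all rows except glycolysis and pentose phosphate, cholesterol synthesis and histone enzymes. For LPS and interferon response, summed scores were 16.2 to 23.9 in diabetic and 19.0 to 35.4 in control libraries.

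No distal region passed the test either. The 11 lists gave 12404 distal regions, of which 4330 were held by exactly 2 libraries and 718 by all 11. Of the 8074 held by at least 3 libraries and tested by score, none was called (0%), and the lowest adjusted p was 0.787. At an unadjusted p under 0.05, 81 regions (1%) had the higher and 140 (1.73%) the lower score in diabetic libraries, and in 8 (0.0991%) and 3 (0.0372%) the groups did not overlap. The 3761 regions held by 4 to 7 libraries, the numbers of holders that can reach an unadjusted p of 0.05, gave none called by Fisher's exact test (0%), with a lowest adjusted p of 0.968. At an unadjusted exact p under 0.05, 56 of them (1.49%) differed, 29 held more in diabetic and 27 more in control libraries. The median standard error of a distal difference was 0.23.

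The regions named next had the smallest p in each direction, each with an adjusted p of 0.787. Distances run to the nearest start site of a protein-coding gene, and a near gene need not be the target. The region with the smallest p on the higher side lay in an intron of Gm38399 (chr1:135664480-135666212), 53849 bp from Csrp1, which encodes a LIM protein of the cytoskeleton. It ranked 8292, 11806, 1795, 6945 and 8172 in diabetic libraries and 11882, 14784, 7524 and 17030 in control libraries 1, 3, 4 and 5, with no peak in 2 and 6. Diabetic library 4 was well above the rest, and the difference was 1.19 ± 0.36 (SE), or 0.74 without that library.

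A region in an intron of Mcub (chr3:129935778-129936456), a subunit that restrains the mitochondrial calcium uniporter, 25316 bp from Casp6, was held by 4 of 5 diabetic libraries, at ranks 2736, 16273, 9141 and 12385, and by control library 4 at 12949. Its difference was 0.89 ± 0.29 (SE), and 0.43 without diabetic library 1, which had the best rank. The region 13786 bp from Adamtsl4, a matrix protein, (chr3:95701703-95702932) ranked 7694, 9234, 6763, 12612 and 11115 in diabetic libraries and 12783, 15438, 18825 and 19342 in control libraries 2, 3, 5 and 6. All diabetic ranks were above all control ranks there, by 0.92 ± 0.30 (SE). An exonic region of Plin1 (chr7:79721029-79722239), which encodes a coat protein of lipid droplets, 1049 bp from its start site, ranked 5182 to 8400 in all 5 diabetic libraries and 10140, 13916 and 5459 in control libraries 2, 3 and 4, a difference of 1.03 ± 0.36 (SE). The remaining pair on this side lay 47539 bp from Snx10 (chr6:51592105-51593209), with a difference of 0.89, and 61247 bp from Tob1 (chr11:94148148-94150207), with a difference of 1.13.

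One region was held by all 5 diabetic and 0 of 6 control libraries, in an exon of Tgfbi (chr13:56627607-56628398), 1505 bp from the start site of this gene for an adhesion protein of the extracellular matrix. Its ranks were 17264, 19526, 13539, 18909 and 17235, all close to the cut at 20000, and its score differed by 0.22 ± 0.12 (SE), and by 0.14 without diabetic library 4. Fisher's exact p was 0.00216 before and 0.968 after Benjamini-Hochberg adjustment. Any region with this pattern of holders has that unadjusted p, so it follows from the choice of the region, which was 1 of 12404. No such region was held by all control and no diabetic libraries. At 1 library from a full split, 18 regions were held by 5 of 6 control libraries and no diabetic one, of 1023 regions held by any 5 libraries. In the other direction, 22 were held by 4 of 5 diabetic libraries and no control one, of 1391 held by any 4. A further 9 were held by all 6 control and 1 diabetic library, of 604 held by any 7, and 6 by all 5 diabetic and 1 control library, of 743 held by any 6. Of the LPS+IFN-γ libraries, 0 of 6 diabetic and 1 of 6 control libraries held the Tgfbi exon. In lists of the length of the shortest, 54313 peaks, 20 regions split the groups, 12 held by diabetic and 8 by control libraries. The number of regions at that length is not given here, so the 20 have no share beside them, and none was called.

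On the lower side, the smallest p was that of an intergenic region 75766 bp from Chd2 (chr7:73617596-73619330), a chromatin remodeler. It ranked 7604, 4898, 4718, 5253 and 7387 in diabetic libraries and 115, 6065, 3428, 7489, 71 and 510 in control libraries. Control libraries 1, 5 and 6 had the high ranks, control library 3 came next and control libraries 2 and 4 lay among the diabetic ones. Scores were 1.77 ± 0.33 in diabetic and 4.43 ± 2.95 in control libraries (SD, n = 5 and 6). The difference was -2.65 ± 0.75 (SE), with an exact two-sided permutation p of 0.104. Without control libraries 5 and 6 the difference was -1.51. The same region was held by 6 of 6 libraries in each LPS+IFN-γ and HSC group, with median ranks between 172 and 864.

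A region in an intron of Eepd1 (chr9:25509304-25510527) ranked 18151, 13197, 17597, 10686 and 15049 in diabetic libraries and 631, 8720, 11164, 16099, 8886 and 4682 in control libraries. Scores were 0.45 ± 0.31 in diabetic and 1.77 ± 1.68 in control libraries (SD, n = 5 and 6). The difference was -1.32 ± 0.38 (SE), with an exact two-sided permutation p of 0.0584, and -0.75 without control libraries 1 and 3. A region in an exon of Gm1647 (chr3:69155419-69157273), 28306 bp from Kpna4, a nuclear import receptor, was held by 3 of 5 diabetic libraries, at 12190, 15603 and 19929, and by all control libraries, at 3470 to 13535. Its difference was -1.05 ± 0.33 (SE), and -0.70 without control libraries 1 and 3. For the regions near Stum (chr1:180428688-180431062) and Dnah17 (chr11:118105290-118108821), control library 1 had the best rank, at 956 and 2924. Their differences were -0.97 and -1.04 with all libraries and -0.29 and -0.70 without control libraries 1 and 3. With all libraries the exact two-sided permutation p was 0.219 near Stum and 0.0152 near Dnah17.

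**Figure D4:**
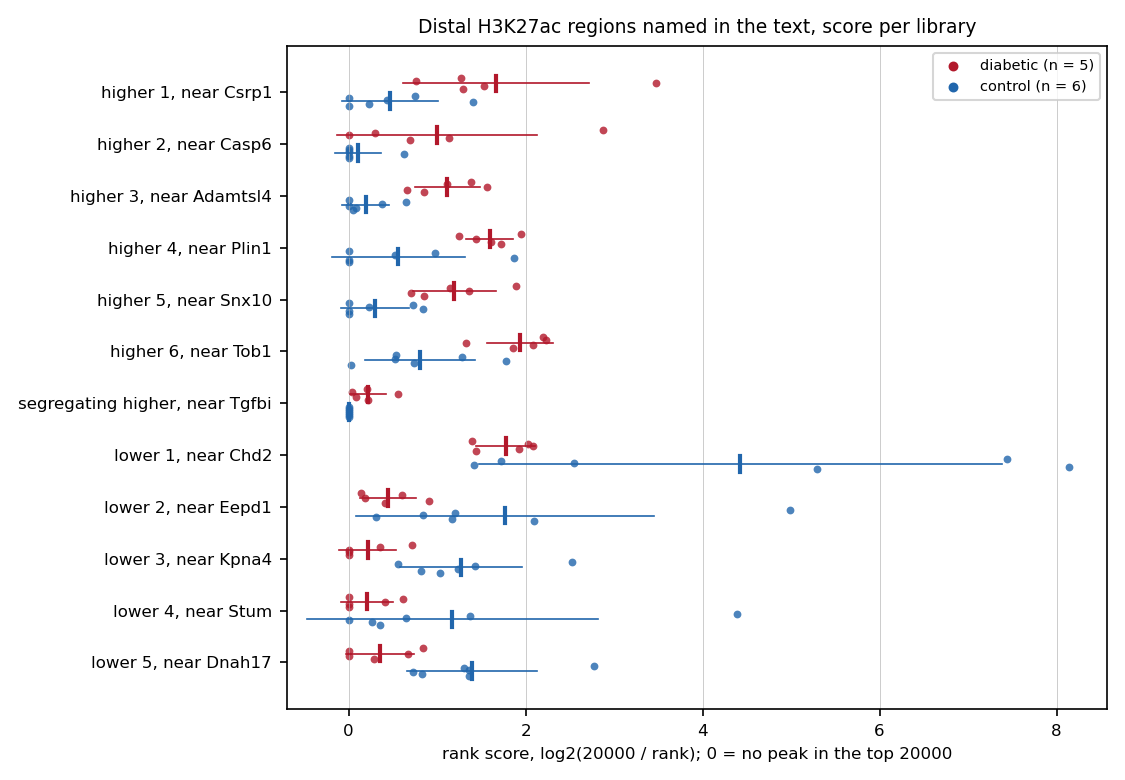
Rank score, log2(20000/rank), of the named distal regions, by the gene nearest to each. Points are libraries, and the tick and line are the mean and SD (n = 5 diabetic, n = 6 control). The Adamtsl4 and Tgfbi regions show groups that do not overlap. Control library 1 has the highest value near Eepd1, Kpna4, Stum and Dnah17, and control libraries 1, 5 and 6 have the high values near Chd2.

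The share of the 20000 peaks that lay more than 1000 bp from every start site was 35.6%, 35.1%, 36.4%, 33.9% and 31.7% in diabetic libraries and 40.1%, 35.5%, 36.7%, 31.9%, 36.4% and 36.5% in control libraries. The means of 34.5% ± 1.83 (SD, n = 5) and 36.2% ± 2.63 (SD, n = 6) differed by -1.63 points (exact two-sided permutation p = 0.251). Control library 1 was highest and control library 4 was the lowest of its group. The difference was -0.53 points without control libraries 1 and 3, and -2.49 points without control library 4, where the exact permutation p was 0.0317. GC content of distal peaks was 1.37 points higher in diabetic libraries (exact permutation p = 0.221), and 0.195 points higher without control libraries 1 and 3.

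The share of distal peaks with a motif overlapped between the groups. Windows of 300 bp at the summits of the 8074 tested distal regions held, on either strand, GAGGAA of PU.1 in 24.4%, TGTGGT of RUNX in 20.1%, TGANTCA of AP-1 in 6.77%, TTGCNNAA of C/EBP in 6.28%, GAAANNGAA of the interferon-stimulated response element in 4.77% and GGANTTTCC of NF-κB in 0.681%. Per library, the PU.1 share of distal peaks was 22.4% to 25.3% in diabetic and 20.8% to 26.9% in control libraries, and the RUNX share was 18.2% to 20.3% and 16.3% to 22.6%. The AP-1 share was 5.56% to 6.81% and 4.88% to 7.92%, and the interferon element 4.01% to 4.66% and 3.75% to 5.91%. The C/EBP share began at 5.50% in diabetic and 6.13% in control libraries, and the NF-κB share was 0.649% to 0.922% and 0.643% to 0.919%. The control range enclosed the diabetic range for PU.1, RUNX, AP-1 and the interferon element but not for C/EBP and NF-κB. Of the named regions, those near Snx10, Chd2 and Dnah17 held GAGGAA, with 3 matches in the last, the one near Tob1 held TGTGGT and TTGCNNAA, and the one near Adamtsl4 held TGANTCA. A match is not evidence that a factor binds there.

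The same fit called differences where BMDM were stimulated. For diabetic BMDM given LPS at 100 ng/mL and IFN-γ at 10 ng/mL for 16 hours, 88 of 12061 promoters (0.73%) and 4 of 8499 distal regions (0.0471%) differed from the unstimulated diabetic libraries, 18 promoters higher and 70 lower. With lists cut to 10000 peaks, 11 of 9959 promoters and 0 of 1616 distal regions were called in this pair, with 128 of the regions at an unadjusted p under 0.05 by limma. For diabetic against control BMDM under LPS+IFN-γ, 0 of 11855 promoters (0%) and 0 of 9151 distal regions (0%) were called, with 314 and 80 at an unadjusted p under 0.05, and for diabetic against control HSC, 0 of 12703 (0%) and 0 of 8070 (0%), with 302 and 115. The stimulation fit shares the diabetic unstimulated libraries with the comparison above.

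Unstimulated control libraries did not all lie with the unstimulated diabetic ones at these promoters, which were chosen without any control library. At the 18 promoters higher with stimulation, the mean score was 1.16 to 1.57 in control libraries 1 to 4 but 2.46 and 2.84 in control libraries 5 and 6. The diabetic values, which the choice fixed, were 0.618 to 1.36 unstimulated and 2.91 to 3.31 stimulated. Stimulated control libraries had 2.47 to 2.96, apart from library 5, which had 1.26. At the 70 promoters lower with stimulation, control libraries 1 to 4 had 1.75 to 2.69, and control libraries 5 and 6 had 0.808 and 1.09, against 2.47 to 2.61 in unstimulated and 0.271 to 1.15 in stimulated diabetic libraries. Stimulated control library 5 had 2.05, and the other stimulated control libraries at most 1.31. At these promoters, the values of these 3 libraries thus went against their labels. Over the LPS and interferon response list, the summed score was 35.4 in unstimulated control library 6 but 19.9 in control library 5. Control libraries 1 to 4 had 19.0 to 29.5 and unstimulated diabetic libraries 16.2 to 23.9 in that list. Without control libraries 5 and 6, no promoter and no distal region was called between diabetic and control BMDM.

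**Figure D5:**
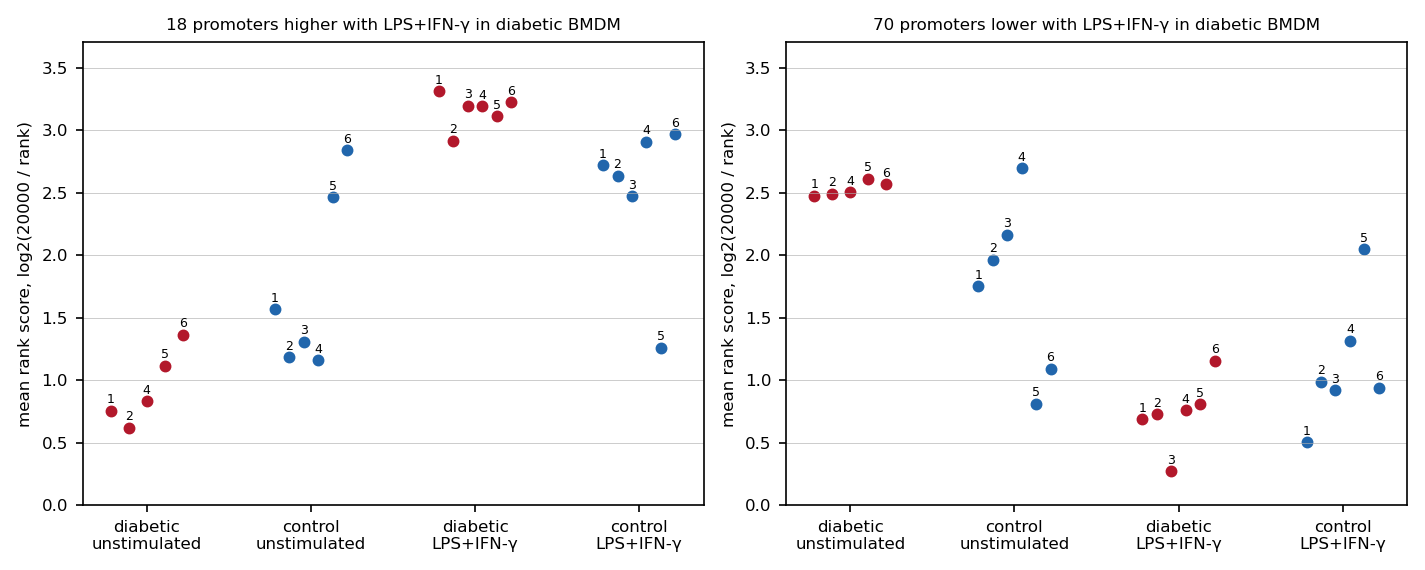
Mean rank score of the 18 promoters higher and the 70 promoters lower with LPS+IFN-γ in diabetic BMDM, for each library of the 4 BMDM groups, with points numbered by replicate. Unstimulated control libraries 5 and 6 lie at 2.46 and 2.84 in the first set, close to the stimulated control libraries (2.47 to 2.96), and stimulated control library 5 lies at 1.26, in the range of unstimulated ones.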

How the data were processed

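H3K27ac ChIP-seq was single-read sequencing, and the authors deposited one peak list per library on GRCm38/mm10 without a header. The submitters' processing notes name Bowtie2 2.2.6, MACS2 2.2.7.1, Picard 2.18.14 and 2.19.2, Trim Galore 0.3.3, cutadapt 1.8, FastQC 0.11.3 and bedtools 2.19.1 with no roles. The deposited lists give fold enrichment as a ratio and the p- and q-value as −log10; read totals are not in them, and lists were called per library. Rows with the same interval were joined, leaving 1227736 peaks of 1478063 summits on 21 chromosomes. Lists were cut to 20000 peaks by −log10 p and scored as log2(20000/rank), with 0 for none.

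Promoters and regions came from GENCODE M21 on GRCm38.p6. Features with at least 3 holders were tested by limma 3.58.1 with trend, in R 4.3.3, over the 11 libraries, with Benjamini-Hochberg adjustment over all features. Occupancy was tested by Fisher's exact test and single values by exact permutation. Scripts ran in Python 3.11.15 with numpy 2.4.6, pandas 2.3.3, scipy 1.17.1 and pysam 0.24.0 and were tested on simulated data. Named were the 8 promoters and 6 regions with the smallest limma p in each direction, regions that split the groups, genes the study names, up to 3 members of each list by p and defining markers. Some items that these rules name are not reported here. Members and lists were chosen with earlier results of these data known. Alternatives were list length, ranking by fold, promoters of 2500 bp, holder minimum, overlap, a replicate block and left-out libraries. Same-numbered libraries of the groups correlated between -0.165 and 0.139 in their deviations, so numbers were not taken as pairs.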

Additional observations from a re-analysis of the deposited data

Results flagged for a closer look

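Dixon's criterion at the 95% level flags about 1 in 20 groups of normal values by chance. That rate is no reference here, since many groups were features chosen by p and scores stop at 0. In 9 of the 90 groups of libraries checked, 1 library lay far from the rest of its group by this criterion. Among promoters, these were control library 3 at Prrg1, with a rank score of 0.176 where the other control libraries were at 0, control library 6 at Glce (7.03, next 4.37) and at Rnf213 (2.28, next 1.34), and control library 4 at the peak of Kctd9 and Cdca2 (4.26, next 3.07). Among distal regions, they were diabetic library 4 in the Gm38399 intron (3.48, next 1.53), control library 4 in the Mcub intron (0.627, others 0), and control library 1 near Stum (4.39, next 1.37) and near Dnah17 (2.77, next 1.37). The summed score of the lipid uptake and efflux list was 43.7 in diabetic library 2 and at most 39.5 in the other diabetic libraries.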

How the results depend on the processing

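No promoter and no distal region was called, by rank or by occupancy, under any alternative run. The lowest adjusted p was 0.692 for promoters and 0.0744 for distal regions, the latter without control library 5. Libraries with one number were not paired in the labels; with the replicate number as a block over 10 libraries, none was called either, and the distal share differed by -1.53 points (exact permutation p = 0.312, smallest possible 0.0625). The share of promoters at an unadjusted p under 0.05 was 3.58% and 2.94% to 5.94% with 1 library left out; for distal regions it was 2.74% and between 0.976% and 5.54% over all alternatives. The regions that split the groups were 1 of 12404 as reported, 0 in the top 10000 and with promoters of 2500 bp, 20 at the shortest list, 5 ranked by fold, 13 without control libraries 5 and 6, 16 without 1 and 3, and 1 to 15 with 1 library left out. The counts under alternatives have no share beside them, as the number of regions at each setting is not given here. With 1 library left out, the distal share difference was -2.49 to -0.85 points, separation by distal regions -0.0016 to 0.0201, negative without control library 1 (-0.00159) or 3 (-0.00151), and separation by promoters -0.00966 to 0.00488, positive without control library 4. Promoter differences that reversed were Runx1 -0.55 and Cd34 -0.11 ranked by fold; Eipr1 0.12, Rnf213 0.89 and Hdac1 0.38 with 2500 bp; and, with 1 library left out, Nos2 (-0.27 to 0.14, above 0 without diabetic library 2 or control library 5), Hk1 (-0.15 to 0.30, below 0 without diabetic library 4), Zbtb46 (-0.0081 to 0.14, below 0 without diabetic library 6), Spi1 (-1.47 to 0.13) and Csf1r (-0.60 to 0.0098), both above 0 without control library 1. Nos2 was 0.35 without control libraries 5 and 6, and Spi1 was 0.28, Csf1r 0.17 and Cd68 0.19 without 1 and 3. Without 1 and 3, Tnf was 0.0022. With 1 library left out, the list medians that changed sign were glycolysis (-0.13 to 0.05), cholesterol synthesis (-0.04 to 0.09), Runx and macrophage factors (-0.23 to 0.02), chemokine receptors and adhesion (-0.08 to 0.34), histone enzymes (-0.16 to 0.10) and cell cycle (-0.05 to 0.11). Leaving out control libraries 1 and 3, or 5 and 6, was chosen after seeing the data. The cause of these shifts was not tested. Regions remade at another list length, ranking or window were not matched one by one. Read depth is unknown, so what it limits could not be given.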
